A study of Mus musculus with 4 samples.

Results

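Proteins and membrane move between the endoplasmic reticulum (ER), the Golgi, endosomes, lysosomes and the cell surface in coated carriers, and the genes of this machinery were followed here in mammalian native elongating transcript sequencing (mNET-seq). They were chosen by gene symbol, by the name stems of the Rab, Arf and Arl GTPases, coat, adaptor, tether, SNARE, sorting nexin, VPS and ESCRT families. Eipr1 was named singly in the rule. The choice was made with earlier results of these data known. Of 3117 genes in either deposited table, 72 were members, and all 72 were in both tables. A further matching symbol, a Rab gene of the pigment granule, was set aside by the rule.

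The cells were mouse B16F10, an established melanoma line, as the parental line (control) or lacking Carm1 (Carm1 KO), an arginine methyltransferase that acts on histones and on proteins of transcription and splicing. The labels name no clone for the Carm1 KO cells, no way of deletion and no treatment in either group. In mNET-seq micrococcal nuclease cuts the chromatin, antibodies pull down RNA polymerase II (Pol II), and the short RNA it protects is sequenced. There were 4 libraries, 1 from each kind of cell with an antibody against Pol II phosphorylated on serine 2 (Ser2P), a mark of elongating polymerase, and 1 with an antibody against the Pol II tail (clone 8WG16). For each condition 3 sets of cells were pooled, so each group is 1 library with no spread between replicates. No test of the conditions was possible, no p-value is given, and every difference below compares these libraries.

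For each gene the tables hold a Ser2P ratio at the transcription start site (TSS) and at the transcription end site (TES). It is the Ser2P signal divided by a signal whose identity is not given in the sources used here, and it exceeded 1 at many genes. A change may lie in either signal. Read depth is unknown. Changes are given as log2(Carm1 KO / control) with no pseudocount, and genes past 1.5-fold, a log2 change of 0.58, are called higher or lower. Over all genes compared the median change was 1.17 at the TSS and 0.85 at the TES, and the scale between libraries is not given, so members are also read against these medians. The labelled cell type was checked only by which genes are listed, since the tables hold no expression: 6 of 8 melanocyte markers were listed, and 0 of 12 markers of fibroblasts, leukocytes and epithelia.

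COPII coats carry cargo out of the ER and COPI coats carry it back. Tethering complexes such as TRAPP, COG, GARP, EARP, HOPS and the exocyst catch arriving carriers, Rab and Arf GTPases mark which membrane is which, and SNARE proteins fuse the membranes. Adaptor complexes, some sorting nexins and ESCRT proteins sort cargo at the trans-Golgi, at the plasma membrane and on endosomes. Pigment cells lean on this machinery to build and move melanosomes, which are organelles related to lysosomes.

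The symbol rule also took in genes that do other work. Vps72 encodes a subunit of a chromatin remodelling complex, Arl6ip4 a protein of splicing speckles, Sec61a1 the channel of the ER translocon and Sec11a a signal peptidase subunit. Rab10os and Rab11fip4os1 are antisense transcripts. All 6 are counted as members, and their values are given apart from those of the families, except that the plots keep Arl6ip4 with the Arf and Arl group. Whether the authors' counting used strand is not given, so reads of an antisense transcript and its partner may not be told apart where they overlap. Rab10os and Rab10 overlap by 2950 bases around their ends.

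Promoter sequence was taken from the RefSeq table on GRCm38.p6, 250 bases before to 50 after a gene's start, with the entry nearest the annotated 5′ end where a gene has several, and 60 of 72 members had an entry. Those with none were Arf6, Rab11fip4os1, Rab30, Sec61a1, Tmed7, Trappc1, Trappc4, Vamp2, Vps13b, Vps28, Vps37a and Vps72. The entry used lay over 1 kb from the annotated 5′ end in Tmed9 (19403 bp), Sec24a (6800 bp), Ap2b1 (3673 bp) and Bet1l (1194 bp). Gene lengths and distances to neighbours below use the annotated ends, which for these genes are uncertain. Both strands were searched for the CLEAR element, the palindrome bound by TFEB and its relatives that drive lysosomal genes. It stood in 5 of 60 member promoters (8.33%), against 33 of 2511 promoters of listed genes (1.31%) and 107 of 32851 promoters in the table (0.326%). The 5 are shown because they mark a feature that the rule did not use, each as 30 bases with the element searched for in capitals:

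Arl2 (chr19:6141188-6141217, minus strand): cactcctgtgGTCACGTGACaacgagggcg
Rab21 (chr10:115315604-115315633, minus strand): gcccaccgcgGTCACGTGACgaggggtgtg
Rab24 (chr13:55321961-55321990, minus strand): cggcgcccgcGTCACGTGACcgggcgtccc
Rab5a (chr17:53479127-53479156, plus strand): acccggggatGTCACGTGACttcggccccg
Vps16 (chr2:130424290-130424319, plus strand): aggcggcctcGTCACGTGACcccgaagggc

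The element began 97 bases upstream of the RefSeq start in Rab5a, 70 in Arl2, 32 in Rab21 and 20 in Vps16, and at the start itself in Rab24. The RefSeq start of Arl2 lies 411 bp inside the annotated gene, so its element begins 341 bp downstream of the annotated 5′ end, whereas in the other genes it lies upstream of that end. Rab5a, Rab21 and Rab24 encode endosomal or autophagic Rab GTPases and Vps16 is a core subunit of the HOPS and CORVET tethers. A match of letters is a description and shows no binding. The 5 genes had TSS changes from 0.55 to 1.93 with a median of 1.04, and the 50 compared members whose promoters lack it had a median of 1.43.

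Other motifs were spread as follows. The E-box CACGTG, which lies inside the CLEAR element, stood in 11 of 60 member promoters (18.3%) and 13.2% of those of listed genes. The CRE-like motif TGACGT stood in 20 of 60 (33.3%) against 20.3%, CCAAT in 30 of 60 (50%) against 41.7%, and the GC box GGGCGG in 37 of 60 (61.7%) against 69.5%. TATAAA was found in 1 of 60 (1.67%), that of Rab7, against 6.25% of listed genes. Over all promoters of the table these shares were 7.15% for CACGTG, 7.51% for TGACGT, 37.4% for CCAAT, 35.7% for GGGCGG and 13.6% for TATAAA. The ER stress response element, CCAAT and CCACG at a fixed distance, was in 0 of 60, in 0.279% of listed genes and in 0.119% of all promoters. No test of these shares was made. The median GC content was 62.7% in members and 61.7% in listed genes.

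The next set shows the first exon-free bases upstream of the start, at most 100, for the 3 members with the largest TSS change and the 3 with the smallest among compared members that have an entry. Capitals mark matches on either strand to the E-box, the CCAAT box, the GC box, the CRE-like motif or TATAAA:

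Exoc3 (chr13:74208733-74208832, minus strand): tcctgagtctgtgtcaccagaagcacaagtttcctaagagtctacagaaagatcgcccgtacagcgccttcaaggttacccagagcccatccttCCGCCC
Vamp4 (chr1:162570415-162570514, plus strand): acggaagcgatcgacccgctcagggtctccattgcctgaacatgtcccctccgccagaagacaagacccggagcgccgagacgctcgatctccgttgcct
Ap4b1 (chr3:103809445-103809516, plus strand): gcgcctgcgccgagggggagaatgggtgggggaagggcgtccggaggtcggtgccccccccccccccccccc
Trappc2l (chr8:122611526-122611625, plus strand): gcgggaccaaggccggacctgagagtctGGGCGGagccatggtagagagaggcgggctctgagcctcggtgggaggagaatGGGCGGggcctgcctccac
Ap3m1 (chr14:21052509-21052573, minus strand): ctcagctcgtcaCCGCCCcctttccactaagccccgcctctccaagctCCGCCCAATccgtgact
Trappc3 (chr4:126262225-126262324, plus strand): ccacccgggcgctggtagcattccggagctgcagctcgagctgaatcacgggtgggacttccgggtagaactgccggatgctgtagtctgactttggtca

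Exoc3, Vamp4 and Ap4b1 had the 3 largest changes of these and Trappc2l, Ap3m1 and Trappc3 the 3 smallest. Within these bases the GC box was found in Exoc3, Trappc2l and Ap3m1, so it occurred at both extremes, Ap3m1 also held a CCAAT box, and Vamp4, Ap4b1 and Trappc3 held none of the motifs. GC content was 54.0% in Exoc3, 63.0% in Vamp4, 81.9% in Ap4b1, 70.0% in Trappc2l, 64.6% in Ap3m1 and 61.0% in Trappc3.

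At the TSS the Ser2P ratio of most trafficking genes was higher in Carm1 KO cells. Of 66 members above 0 in both conditions, 50 were higher past 1.5-fold (75.8%), against 71.2% of all genes, and 4 were lower, against 5.6% of all genes. The median member ratio was 0.0730 in control against 0.183 in Carm1 KO cells, where that of all genes was 0.0809 and 0.166. The median change was 1.36, or 2.58-fold, and 37 of 66 members lay above the median of all genes. The share called higher was near the background. With the median of all genes subtracted, 23 members were higher (28.6% of all genes were) and 16 lower (28.8%).

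**Figure D1:**
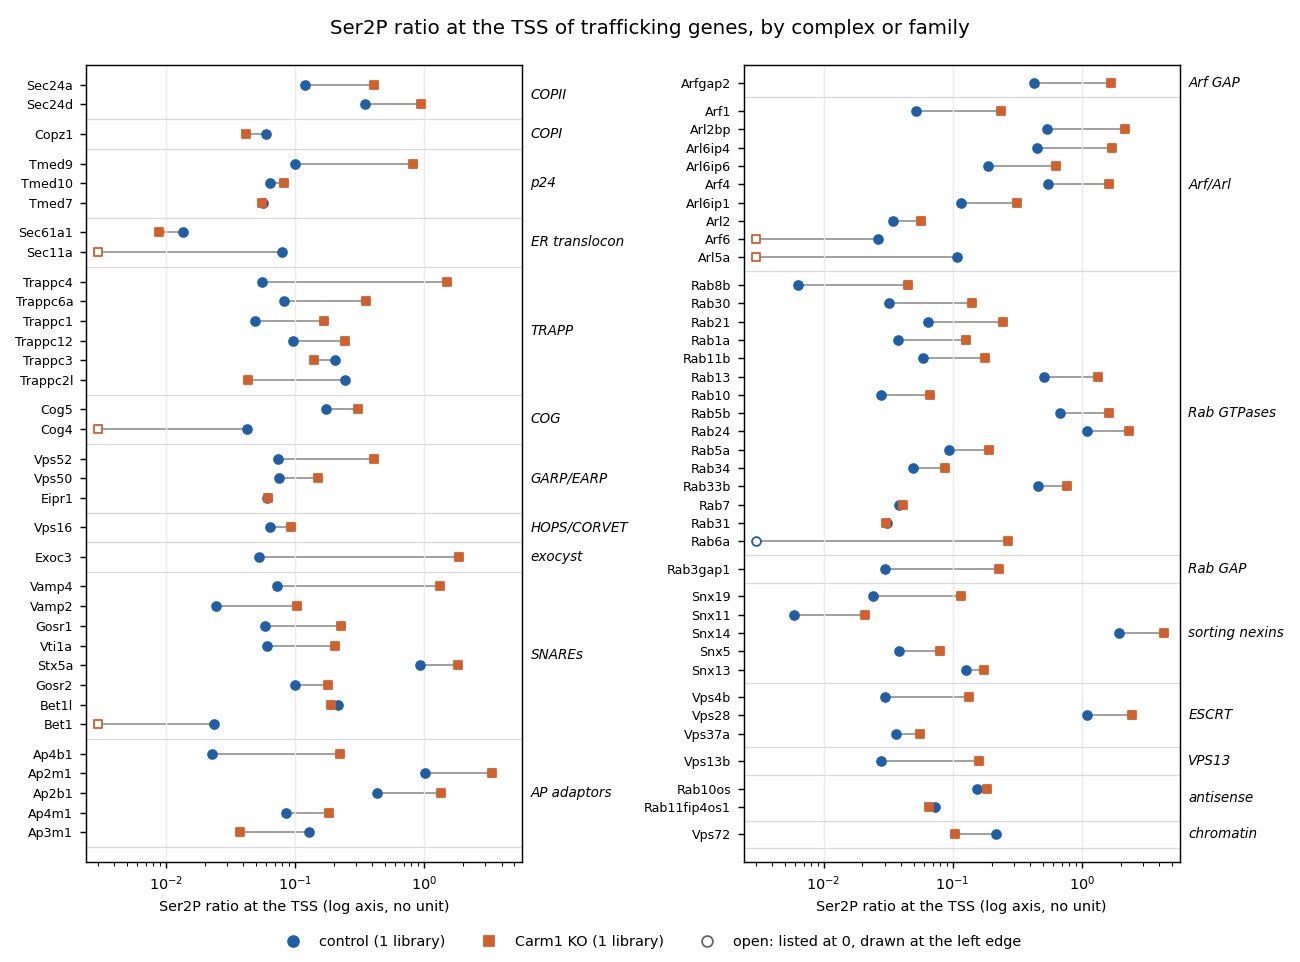
Ser2P ratio at the TSS (log axis) of each of the 72 members in control (circles) and Carm1 KO cells (squares), 1 library each, grouped by complex or family, with a line joining the values of a gene. Open symbols at the left edge are genes listed at 0. Exoc3, Trappc4 and Vamp4 span more than 10-fold from control to Carm1 KO, and Trappc2l and Ap3m1 run the other way.

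The coats of the early secretory pathway differed gene by gene. Sec24d, a cargo-binding subunit of COPII, had a TSS ratio of 0.351 in control against 0.949 in Carm1 KO cells (log2 change 1.44). Sec24a, a paralogue, had 0.121 and 0.413 (1.77), and its annotated start lies 53 bp from that of Sar1b, the GTPase that assembles COPII. The nearest RefSeq start of Sec24a lies 6800 bp from that annotated start. Copz1, a COPI subunit, went the other way without passing the limit, from 0.0594 to 0.0419 (-0.50). The p24 cargo receptors split too: Tmed9 had 0.101 and 0.823 (3.03), whereas Tmed10 had 0.0646 and 0.0820 and Tmed7 had 0.0571 and 0.0559, changes of 0.34 and -0.03.

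The TRAPP tethers, which activate Rab GTPases as carriers dock, held changes of opposite sign. The TSS ratio of the core subunit gene Trappc4 was 0.0561 in control against 1.52 in Carm1 KO cells, a 27.1-fold change (log2 4.76) that ranked 8 from the top among 2859 genes. Its start lies 461 bp from that of Rps25, and its control value was that of 6 genes and its Carm1 KO value that of 2. That of Trappc2l was 0.245 and 0.0433, 5.65-fold lower (-2.50), rank 6 from the bottom. The Trappc2l start lies 177 bp from that of Galns, and its values were those of 2 and of 5 genes. Both genes are short, Trappc4 at chr9:44403698-44407600 on the minus strand and Trappc2l at chr8:122611640-122616660 on the plus strand of GRCm38. Of the other subunits Trappc6a had 0.0829 and 0.355, Trappc1 changed by 1.78 and Trappc12 by 1.34, all past the limit, and Trappc3 had a change of -0.54. Of 6 TRAPP genes 4 were higher and 1 was lower, against 71.2% and 5.6% of all genes. Their median was 1.56, and 4 of 6 lay above the median of all genes.

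Exoc3, the only exocyst gene listed, had the largest TSS change of all members. Its ratio was 0.0527 in control against 1.88 in Carm1 KO cells, 35.6-fold higher (5.16), rank 6 from the top of all genes. It spans chr13:74169488-74208732 on the minus strand of GRCm38. The control value was that of 5 genes in all and the Carm1 KO value was shared with no other gene.

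In the GARP and EARP tethers, which return carriers from endosomes to the trans-Golgi or to recycling endosomes, the shared subunit gene Vps52 had a TSS ratio of 0.0746 in control against 0.408 in Carm1 KO cells (2.45). The EARP subunit gene Vps50 had 0.0751 and 0.152 (1.01), and Eipr1, which encodes a partner protein of EARP, had 0.0614 and 0.0621 (0.02). Vps16 had 0.0643 and 0.0940, a change of 0.55 that missed the limit. Cog5, of the COG tether within the Golgi, had 0.175 and 0.310 (0.82).

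Of 7 SNARE genes 6 were higher at the TSS (71.2% of all genes were), with a median of 1.75, and 4 of 7 lay above the median of all genes. Without values shared by 5 or more genes only 3 SNARE genes were left, with a median of 0.97, below that of all genes. The TSS ratio of Vamp4, a SNARE between endosomes and the trans-Golgi, was 0.0734 in control against 1.34 in Carm1 KO cells, 18.3-fold higher (4.19). These values were those of 10 and of 6 genes. Vamp2, of regulated secretion, changed by 2.07, Gosr1 and Gosr2, of the Golgi, by 1.97 and 0.86, Vti1a by 1.75 and Stx5a, of ER to Golgi transport, by 0.97. Bet1l had 0.216 and 0.192 (-0.17).

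Adaptor genes held a wide range for 5 members of 3 complexes. Of AP-4, which sorts cargo at the trans-Golgi, the subunit gene Ap4b1 had a TSS ratio of 0.0226 in control against 0.224 in Carm1 KO cells, 9.88-fold higher (3.30), and Ap4m1 changed by 1.11. Of AP-2, the clathrin adaptor of the plasma membrane, Ap2b1 changed by 1.66 and Ap2m1 by 1.72. Ap3m1, of the AP-3 adaptor for lysosomes and melanosomes, had 0.129 and 0.0373, 3.45-fold lower (-1.79), rank 20 from the bottom of all genes. The Ap3m1 start lies 66 bp from that of Adk, and its values were those of 7 and of 6 genes.

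Of the GTPases, 12 of 14 compared Rab genes were higher at the TSS and 0 were lower, against 71.2% and 5.6% of all genes. Their median was 1.27, close to that of all genes. Rab8b, of exocytosis, had the largest change as deposited, from 0.00633 in control to 0.0447 in Carm1 KO cells (2.82). Rab30 (2.14) and Rab21 (1.93) followed, then Rab1a (1.74), the Rab of ER to Golgi transport. Both Rab8b values were low, below 0.05, and the Carm1 KO one was that of 8 genes. With a pseudocount of 0.01 Rab8b fell to 1.75, under Rab30 (1.84) and Rab21 (1.78). Rab7, the Rab of late endosomes, had 0.0381 and 0.0408 (0.10), and Rab31 had 0.0309 and 0.0305 (-0.02). The TSS ratio of Rab3gap1, of a complex that acts on Rab3 and Rab18, was 0.0297 and 0.230 (2.95). Without Arl6ip4, the Arf and Arl group had 6 compared genes, all higher, from 0.71 at Arl2 to 2.17 at Arf1, with a median of 1.66. Of these Arl2bp, Arl6ip1 and Arl6ip6 encode partners of Arl proteins, not GTPases. Counting Arl6ip4, 6 of 7 lay above the median of all genes. Arfgap2, a GTPase activator for Arf1 on COPI carriers, changed by 1.99.

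Of 5 sorting nexin genes 4 were higher (71.2% of all genes were), from 1.06 at Snx5, a retromer-linked nexin, to 2.24 at Snx19. Snx13 had a change of 0.47. Of the 5 only Snx11 and Snx19 exceeded the median of all genes, and the family median of 1.14 turned to -0.03 once that median was subtracted. The ESCRT genes Vps4b, the ATPase that recycles the complex, Vps28 and Vps37a changed by 2.16, 1.17 and 0.63. Vps13b, a lipid transfer protein gene of the Golgi, had 0.0278 in control against 0.161 in Carm1 KO cells (2.54).

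Among the matches that are not trafficking genes in the strict sense, Vps72 had 0.217 and 0.105 (-1.06) and Sec61a1 had 0.0135 and 0.00889 (-0.61), both lower past the limit. Sec61a1 lost this call with a pseudocount of 0.01 (-0.32). Arl6ip4 had 0.450 and 1.73 (1.94). With Trappc2l and Ap3m1, Vps72 and Sec61a1 were the 4 members called lower. The antisense transcripts Rab10os and Rab11fip4os1 had changes of 0.26 and -0.14. Without Vps72, Sec61a1 and Sec11a, 2 of 64 compared members were lower.

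A TSS ratio of 0 was listed for 5 members in Carm1 KO and for 1 in control cells, against 6.23% and 3.25% of all genes listed at the TSS. Those at 0 in Carm1 KO cells were Arf6 (0.0265 in control), Arl5a (0.108), Bet1 (0.0237), Cog4 (0.0428) and Sec11a (0.0799). Rab6a, the main Golgi Rab, was at 0 in control and at 0.268 in Carm1 KO cells. No fold was computed for them, since an exact 0 may be an estimate that failed.

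A control TSS ratio above 0.4, a limit chosen after the values were seen, was found at 13 members. They were Snx14 (1.95), Rab24 (1.11), Vps28 (1.09), Ap2m1 (1.02), Stx5a (0.938), Rab5b (0.683), Arf4 (0.544), Arl2bp (0.542), Rab13 (0.514), Rab33b (0.459), Arl6ip4 (0.450), Ap2b1 (0.432) and Arfgap2 (0.427). All 13 were higher in Carm1 KO cells, with changes from 0.73 to 1.99, as were 358 of 391 genes of the tables above that limit. The end of another gene lies within 1 kb of the start of 4 of them (of 5 of all 66 compared members, and of 13.6% of all genes), that of Tonsl 84 bp from Vps28, 1700092M07Rik 188 bp from Stx5a, Pacsin3 295 bp from Arfgap2 and Ogfod2 606 bp from Arl6ip4. The starts of other genes lie near as well, that of Rps27 44 bp from Rab13, Arf4os 109 bp from Arf4, 1700092M07Rik 695 bp from Stx5a and Gm38160 909 bp from Rab33b. The part of these neighbours in the ratios was not tested.

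The spread of the change narrowed with the level. With all genes cut in 3 equal groups by the mean of both TSS ratios, members in the lowest group (up to 0.0982) had an interquartile range of 1.96 over 23 genes. In the middle group it was 1.32 over 18, and in the highest group, from 0.201, it was 0.82 over 25, with 24 of them higher and 0 lower. For all genes these ranges were 1.61, 1.28 and 1.16, and in the highest group 845 of 953 were higher and 9 lower. The mean includes the Carm1 KO ratio, so a large rise itself carries a gene into the highest group. The calls by group are therefore partly set by the grouping. Of the 71 control and 67 Carm1 KO member values above 0 at the TSS, 35 and 37 were exactly shared with another gene. At the TES 10 of 72 control and 23 of 72 Carm1 KO values were.

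At the TES the ratio was also higher in Carm1 KO cells for most members. Of 72 members 48 were higher past 1.5-fold (66.7%), against 66.7% of all genes, and 8 were lower (11.1%), against 7.13% of all genes. Eipr1, named singly in the rule with earlier results known, is among the 8, so the share called lower is partly set by the choice. The median ratio was 2.30 in control against 3.33 in Carm1 KO cells, and that of all genes was 1.71 and 2.99. The median change was 0.89, or 1.85-fold, with 38 of 72 members above the median of all genes. Again the share called higher was that of the background. With the median of all genes subtracted, 7 members were higher (11.6% of all genes were) and 17 lower (22.0%).

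**Figure D2:**
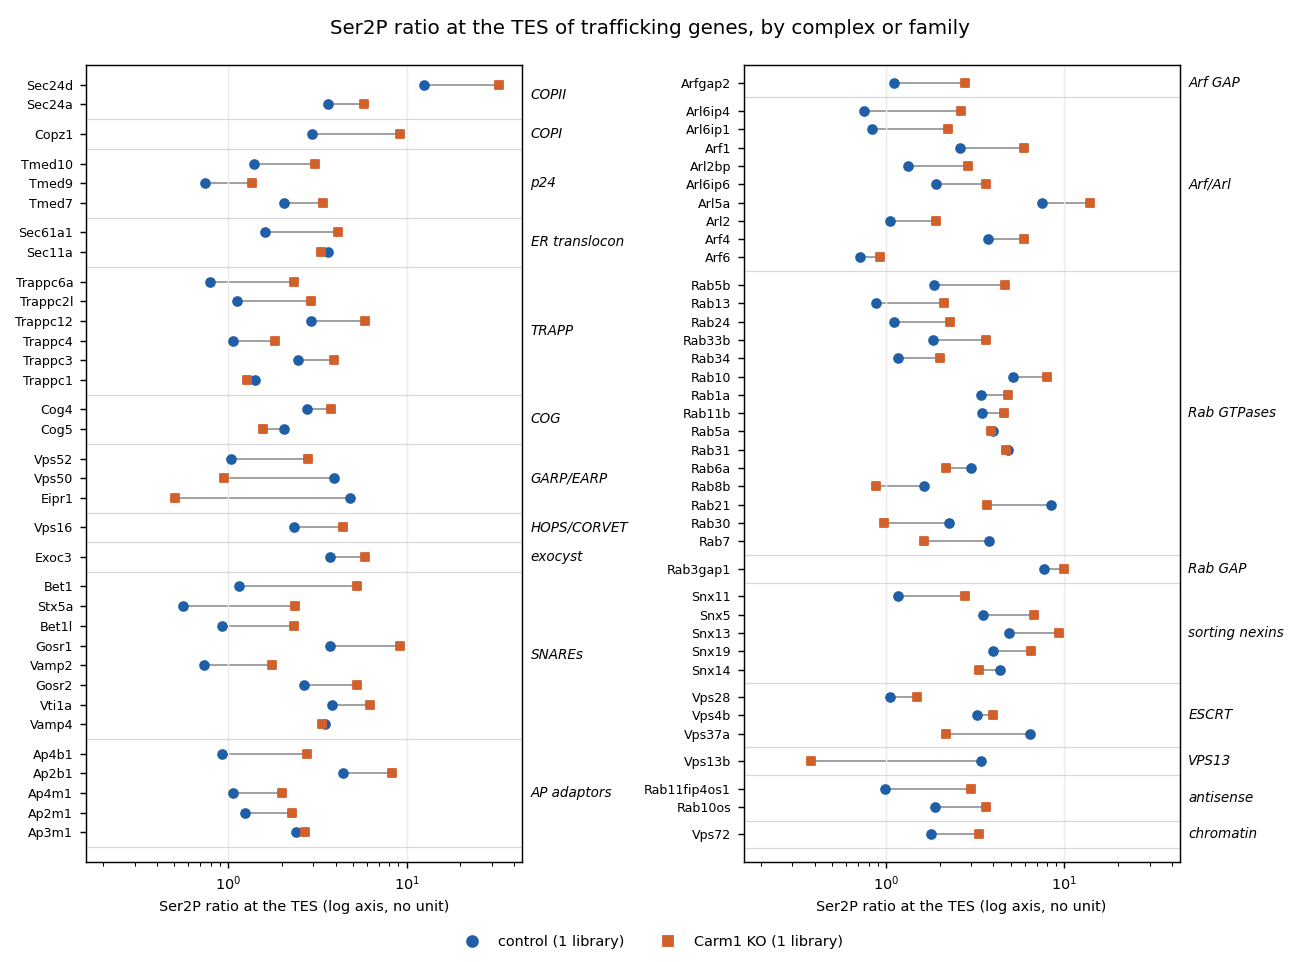
Ser2P ratio at the TES (log axis) of the 72 members in control (circles) and Carm1 KO cells (squares), 1 library each, grouped by complex or family, with a line joining the values of a gene. Eipr1, Vps13b and Vps50 run to lower values in Carm1 KO cells, while 7 of 8 SNARE genes run to higher ones past 1.5-fold, as do 66.7% of all genes.

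The 8 members called lower were Vps50 of the EARP tether, its partner Eipr1, 1 gene of lipid transfer, 1 of ESCRT and 4 Rab genes. Of these Eipr1 was a member by its own symbol, not by a name stem. Eipr1, which spans chr12:28751803-28869865 on the plus strand, had a TES ratio of 4.80 in control against 0.503 in Carm1 KO cells, 9.53-fold lower (-3.25) and rank 2 from the bottom of 3016 genes. Vps13b, on chr15:35371160-35931229, plus strand, had 3.43 and 0.383, 8.94-fold lower (-3.16) and rank 4. These Vps13b values were those of 7 and of 3 genes, and the Eipr1 values those of 4 and of 2. Vps50, on chr6:3498382-3603531, plus strand, had 3.93 and 0.945, 4.16-fold lower (-2.06) and rank 22. The gene Vps52, which EARP shares with GARP, had 1.04 and 2.79 (1.42).

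The ESCRT-I gene Vps37a had a TES ratio of 6.40 in control against 2.18 in Carm1 KO cells (-1.55). The end of Mtmr7, on the opposite strand, lies 39 bp from the Vps37a end. Ends of other genes also lie near those of further members, such as Slc9a3 46 bp from Exoc3, Cep68 181 bp from Rab1a and Pp2d1 220 bp from Rab5a. The part of these neighbours in the TES ratios was not tested. The other 4 members called lower were Rab genes. Rab7 had 3.77 and 1.63 (-1.21), Rab30, a Golgi Rab, had 2.24 and 0.976 (-1.20), Rab21, an early endosomal Rab, had 8.44 and 3.70 (-1.19) and Rab8b had 1.63 and 0.880 (-0.88). Of 15 Rab genes 6 were higher, 4 lower and 5 in between, where 66.7% of all genes were higher and 7.13% lower. The Rab median was 0.41, and 4 lay above the median of all genes. The Rab genes called higher were Rab5b (1.32), Rab13 (1.26), Rab24 (1.05), Rab33b (0.99), Rab34 (0.79) and Rab10 (0.64). Those in between were Rab1a (0.50), Rab11b (0.41), Rab5a (-0.03), Rab31 (-0.05) and Rab6a (-0.48). Rab5a and Rab5b, paralogues of the early endosome, thus stood on different sides of the limit, at gene lengths of 28.4 kb and 19.1 kb.

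SNARE genes had the highest TES median of the families with 3 or more members, 1.27 over 8 genes, and 6 of 8 lay above the median of all genes. Bet1, of ER to Golgi fusion, had a TES ratio of 1.16 in control against 5.25 in Carm1 KO cells, 4.52-fold higher (2.18). Its partner gene Stx5a had 0.558 and 2.38, 4.25-fold higher (2.09). Bet1l changed by 1.34, Gosr1 by 1.30, Vamp2 by 1.25, Gosr2 by 0.99 and Vti1a by 0.71. Vamp4, with its large change at the start, had 3.50 and 3.37 (-0.05) at the end.

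Coat and adaptor genes were nearly all higher at the TES, where 66.7% of all genes were higher and their median change was 0.85. Above that median lay 4 of 5 adaptor genes, 2 of 3 p24 genes, 1 of 2 COPII genes and the COPI gene. With it subtracted Sec24a stood at -0.19 and Tmed7 at -0.14. Copz1 had 2.95 in control against 9.21 in Carm1 KO cells (1.64), Sec24d had 12.5 and 33.1 (1.41) and Sec24a had 3.65 and 5.78 (0.66). Sec24d had the highest TES ratio of any member in each condition. The p24 genes Tmed10, Tmed9 and Tmed7 changed by 1.13, 0.89 and 0.71. In the adaptors Ap4b1 changed by 1.57, Ap4m1 and Ap2b1 by 0.91 each and Ap2m1 by 0.88, and Ap3m1 had 2.40 and 2.70 (0.17).

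Of the TRAPP genes 5 of 6 were higher at the TES, where 66.7% of all genes were. They ran from 0.67 at Trappc3 to 1.56 at Trappc6a, and Trappc1 had 1.42 and 1.27 (-0.15). Trappc12 (1.00) and Eipr1 (-3.25) start 1331 bp apart on opposite strands, and their TES ratios went opposite ways. Of the Arf and Arl GTPases and partners without Arl6ip4, 7 of 8 were higher, from 0.66 at Arf4 to 1.41 at Arl6ip1, and Arf6 had 0.721 and 0.922 (0.35). Arfgap2 changed by 1.32 and Rab3gap1 had 7.66 and 9.97 (0.38). Sorting nexins were higher in 4 of 5 cases, from 0.70 at Snx19 to 1.24 at Snx11, and Snx14 had 4.35 and 3.33 (-0.39). Above the median of all genes lay 3 of 6 TRAPP genes, 3 of 5 sorting nexins and, with Arl6ip4, 7 of 9 Arf and Arl genes. Exoc3 (0.66), Vps16 (0.90), Sec61a1 (1.36), Vps72 (0.89), Arl6ip4 (1.80), Rab11fip4os1 (1.59) and Rab10os (0.95) were higher, while Vps28 (0.50), Vps4b (0.29), Cog4 (0.45), Cog5 (-0.39) and Sec11a (-0.13) were in between.

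The change at the TES varied with gene length in members as it did in all genes. All genes were cut by length in 4 equal groups. Up to 7.09 kb the member median was 0.92 over 10 genes with 7 higher and 0 lower, where 591 of 729 genes of the tables were higher and 5 lower. In the second group (up to 18.03 kb) it was 1.25 over 20 genes, all 20 of them higher, as were 635 of 753. It was 0.66 over 23 genes in the third group, with 13 higher and 2 lower, against 526 and 33 of 762. In the longest group, from 39.6 kb, it was -0.05 over 19 genes, with 8 higher and 6 lower (31.6%). All genes of that group had a median of 0.17, with 240 of 740 higher and 165 (22.3%) lower. The pattern in all genes was known beforehand and the members are among those genes, so they are no independent support for it. At the TSS the member medians of the 4 groups lay between 1.17 and 1.42.

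**Figure D3:**
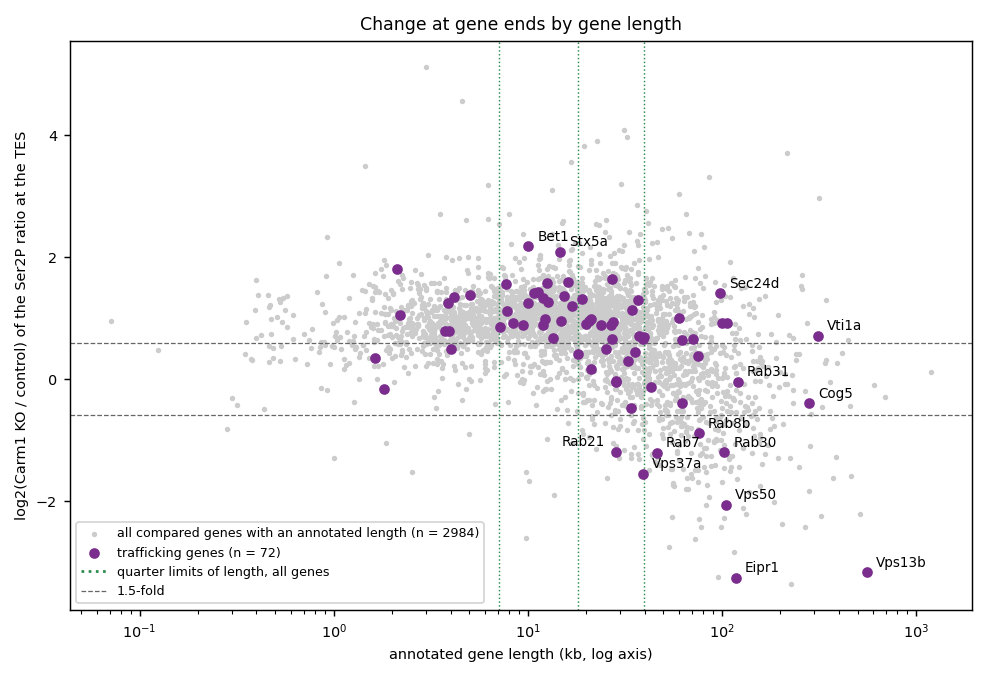
Change of the TES ratio, log2(Carm1 KO / control), against annotated gene length in kb (log axis) for the 72 members (large points) over all compared genes with a length (small points). Dashed lines mark 1.5-fold and dotted lines the limits of the 4 length groups. The 6 members called lower from 39.6 kb on include Eipr1 and Vps13b, while Vti1a and Sec24d are long and higher.

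Length did not order the members fully. Vti1a, of 311 kb, changed by 0.71, Sec24d, of 98.2 kb, by 1.41, and Ap2b1, of 106 kb, by 0.91. Rab21, of 28.5 kb, and Vps37a, of 39.4 kb, were lower at shorter lengths. Set against the median of genes in the same of 10 length groups, Eipr1 stood at -3.17, Vps13b at -3.07, Vps37a at -2.21, Rab21 at -2.03 and Vps50 at -1.97. Rab7 stood at -1.87, Rab30 at -1.11 and Rab8b at -1.11, so all 8 stayed lower past 1.5-fold. For Vps37a, Rab21, Rab7 and Rab8b the median subtracted was above 0, so their call could not be lost. Spearman's rho between length and TES change was -0.52 across the 72 members and -0.34 across 2984 genes. Between length and the TES ratio itself rho was 0.78 in control against 0.32 in Carm1 KO cells across members, and 0.78 and 0.57 across 2997 genes. These are descriptions across genes that share 1 pair of ratios, not across replicates.

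Changes at the 2 ends were not ordered together. Across the 66 members compared at each end Pearson's r was -0.04 and rho -0.06. Both ends were higher past 1.5-fold at 34 of 66 members, against 49.2% of all genes. Higher at the TSS and lower at the TES were Rab21, Rab30, Rab8b, Vps13b, Vps37a and Vps50, 6 of 66 members against 4.58% of all genes. Lower at the TSS and higher at the TES were Sec61a1, Trappc2l and Vps72, 3 of 66 against 3.42%. No member was lower at both ends, where 0.613% of all genes were. Only Rab31 passed the limit at neither end.

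**Figure D4:**
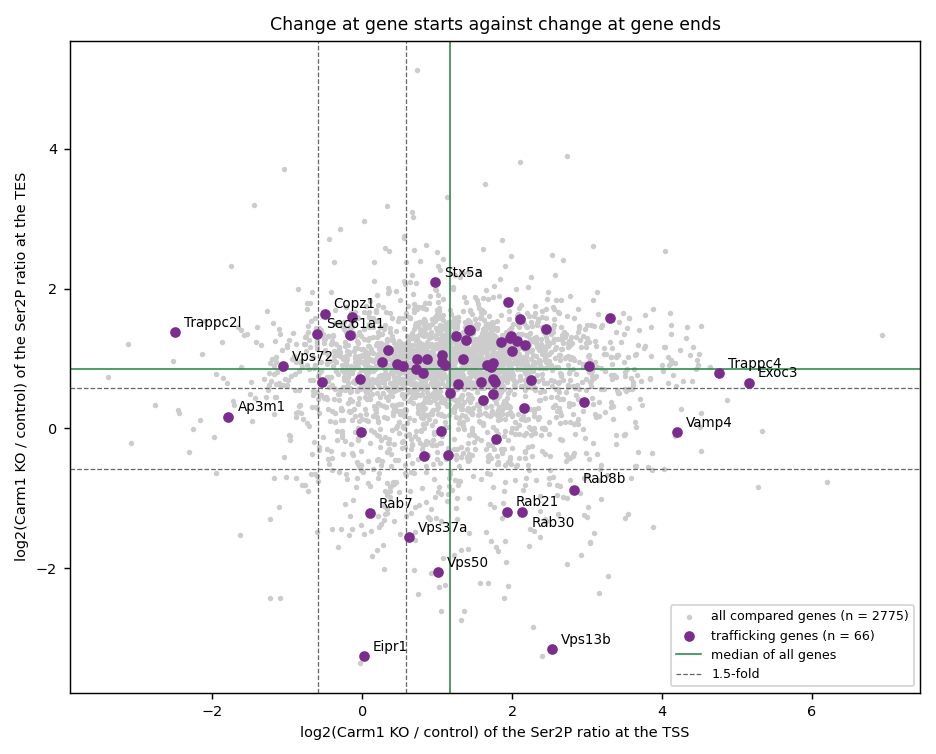
Change at the TES against change at the TSS, each as log2(Carm1 KO / control) of the Ser2P ratio, for the 66 members compared at both ends (large points) over 2775 genes (small points). Solid lines are the medians of all genes, 1.17 and 0.85, and dashed lines mark 1.5-fold. Exoc3, Trappc4 and Vamp4 stand out at the right, Trappc2l at the left, and Vps13b and Eipr1 at the bottom.

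The TES ratio over the TSS ratio of a gene cancels any scale common to both tables. Its median over members was 30.2 in control against 17.0 in Carm1 KO cells, and over all genes 20.7 and 16.1. Its log2 change had a median of -0.67 in 66 members and -0.40 in 2775 genes. Past 1.5-fold, 37 members (56.1%) shifted toward the TSS, against 44.2% of all genes, and 12 (18.2%) toward the TES, against 19.8%. With the median of genes of like length subtracted at each end the member median was -0.07.

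Vps13b had the largest shift toward the start, from 123.3 times as high at the TES as at the TSS in control to 2.38 times in Carm1 KO cells (-5.69). Exoc3 went from 70.6 to 3.12 times (-4.50), Vamp4 from 47.7 to 2.51 times (-4.25), Trappc4 from 18.9 to 1.21 times (-3.97) and Rab8b from 257 to 19.7 times (-3.71). In Vps13b both ends moved, in Vamp4 the start alone passed the limit. The Vps13b shift rests on a control TSS ratio of 0.0278 and on values that other genes share. Its TSS values were those of 4 and of 7 genes and its TES values those of 7 and of 3. The Rab8b shift rests on TSS ratios below 0.05 in each condition. Toward the end, Trappc2l went from 4.58 to 67.4 times (3.88), Copz1 from 49.7 to 220 times (2.14) and Sec61a1 from 119 to 463 times (1.96). The TES ratio lay under the TSS ratio at Stx5a and Vps28 in control and at Ap2m1, Rab24, Snx14 and Vps28 in Carm1 KO cells, 2 of 71 and 4 of 67 members. Among genes compared at both ends those shares were 2.99% and 6.16%.

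Other genes of the route, from a list of 131 trafficking genes outside the symbol rule, were listed in 36 cases. At the TSS 28 of 33 were higher (71.2% of all genes were) and 2 lower (5.6%), with a median of 1.14 and 16 of 33 above the median of all genes. At the TES 23 of 36 were higher (66.7% of all genes) and 2 lower (7.13%), with a median of 0.80 and 17 of 36 above that of all genes. With the median of all genes subtracted, 10 were higher and 5 lower at the TSS, where 28.6% and 28.8% of all genes were. For the TES 4 were higher and 9 lower, where 11.6% and 22.0% of all genes were. The largest TSS changes were at Gga1 (2.74) and Stxbp2 (2.62), and Stam2 (-0.98) and Washc2 (-0.62) were lower. At the TES Arfip2 (1.67) and Gga1 (1.62) were highest. Stam, which with Hgs passes cargo to ESCRT-I, had a TES ratio of 7.03 in control against 2.18 in Carm1 KO cells (-1.69), and Stxbp4 had 13.0 and 4.99 (-1.39).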

How the data were processed

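Per the file headers, the authors deposited for each gene a Ser2 fraction in control cells, one in Carm1 KO cells and their difference, at the TSS and at the TES. The values exceed 1 and were treated as a linear ratio made by the authors. Not given in the sources used here: the divisor, the windows, the scaling, the strand setting and how genes were chosen. The builds GRCm38 and mm10 and the tools TopHat2 2.1.1 and cutadapt 1.18 were named, per the submitters' processing notes. The difference they deposited, in the tables as another value, equalled Carm1 KO minus control within 1e-09 and was not used. The tables give no counts, so depth and counting error are unknown.

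Columns were assigned to groups by their names, symbols were matched, ignoring case, to GENCODE M21 (GRCm38), which placed 3084 of 3117 genes and all 72 members, and promoters came from RefSeq (GRCm38.p6). Changes were computed over both whole tables with Python 3.11.15 and pandas 2.3.3. Only the arithmetic was checked, on control values multiplied by known factors with no noise. That check does not measure how reliable changes between single libraries are. Each group is 1 library, so no test was run. The members and lists were chosen with earlier results of these data known. Every member may be named, with values first for the largest changes, opposite changes and zeros. Families under 3 genes get no median. Antisense transcripts were moved to a group of their own after the symbols were seen.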

Additional observations from a re-analysis of the deposited data

How the results depend on the processing

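Every alternative but 1 was planned, and leaving out the antisense transcripts and Arl6ip4 as well was chosen after seeing the data. Depth is unknown, and what it limits was not measured. As deposited, 50 members were higher and 4 lower at the TSS, and 48 and 8 in the TES table, with medians of 1.36, 0.89 and, for the TES to TSS ratio, -0.67. Subtracting the median of all genes gave 23 and 16 at the TSS, and 7 and 17 in the TES table, with medians of 0.20, 0.036 and -0.35. Subtracting the median of the same of 10 groups of gene length gave 23 and 17, 11 and 16, and medians of 0.15, -0.015 and -0.075, so the TES median changed sign. For this and the alternatives below the share of all genes called was not computed. A pseudocount of 0.01 (TSS) or 0.1 (TES) gave 8 of 72 lower at the TSS and medians of 1.15, 0.82 and -0.52. The members listed at 0 enter here, 5 of them at 0 in Carm1 KO cells. A limit of 2-fold gave 23 of 72 higher at the TES. Without low values (mean ratios below 0.05 for the TSS and 0.5 for the TES) the TSS median was 1.43 and the ratio's -0.71. Without values shared by 5 or more genes 35 members were left at the TSS, 30 of them higher and 2 lower, with medians of 1.44 and, for the ratio, -0.63. At the TES 67 were left, 46 of them higher and 7 lower, and Vps13b was among those left out. Members were also dropped at the TSS if a neighbour finished no more than 1 kb from their start. At the TES they were dropped if a neighbour began that close to their end. With 61 and 67 members left the medians were 1.34, 0.88 and, for the ratio, -0.81. Genes with close starts, such as Trappc4, Trappc2l and Ap3m1, stayed in, as did Vps37a with its close ends. Those neighbours were thus not removed. Without Vps72 and the translocon genes the medians were 1.41, 0.88 and -0.71 with 2 lower at the TSS. Without the antisense transcripts and Arl6ip4 too they were 1.43, 0.83 and -0.81 with 2 lower.

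Subtracting the all-gene median turned the sign of these called members, at the TSS, Ap4m1 -0.063, Arl2 -0.46, Cog5 -0.35, Gosr2 -0.31, Rab24 -0.11, Rab33b -0.44, Rab34 -0.36, Rab5a -0.12, Snx14 -0.028, Snx5 -0.11, Stx5a -0.20, Vps37a -0.54, Vps50 -0.15 and, at the TES, Arf4 -0.19, Exoc3 -0.19, Rab10 -0.21, Rab34 -0.063, Sec24a -0.19, Snx19 -0.15, Tmed7 -0.14, Trappc3 -0.18, Trappc4 -0.055, Vti1a -0.14. The TSS medians of the GARP and EARP genes (-0.15) and sorting nexins (-0.028) turned as well. With the median of like length they were, at the TSS, Ap4m1 -0.067, Arl2 -0.46, Cog5 -0.31, Gosr2 -0.41, Rab33b -0.49, Rab34 -0.27, Rab5a -0.17, Rab5b -0.015, Snx14 -0.14, Snx5 -0.21, Stx5a -0.099, Vps37a -0.71, Vps50 -0.12 and, at the TES, Ap2m1 -0.16, Ap4m1 -0.087, Arf4 -0.17, Arl2 -0.14, Exoc3 -0.0056, Gosr2 -0.024, Rab10os -0.050, Rab33b -0.049, Rab34 -0.11, Snx5 -0.063, Tmed9 -0.13, Trappc3 -0.33, Trappc4 -0.100, Vps16 -0.12, Vps72 -0.15, and the family medians of GARP and EARP (-0.12) and sorting nexins (-0.14) at the TSS and of the adaptors (-0.087) at the TES. These scalings subtract a value above 0 from most genes by construction. The 8 members lower at the TES and the 4 lower at the TSS stayed lower past 1.5-fold under both. Where the value subtracted is above 0 a lower call cannot be lost, so its survival there is no check. With the pseudocount Arl2, Sec61a1 and Vps37a lost their call at the TSS.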
